A study of Homo sapiens with 6 samples.

Results

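The 9 genes described here encode the machinery of major histocompatibility complex (MHC) class I antigen presentation. They were chosen by name and all 9 were found among the 58735 genes of the table: 4 heavy chain genes (HLA-B, HLA-C, HLA-E and HLA-F), the light chain gene B2M, the peptide transporter genes TAP1 and TAP2, the tapasin gene TAPBP and the transactivator gene NLRC5. RNA was sequenced from SK-MES-1 cells, an established human line of lung squamous cell carcinoma. There were 3 groups of 2 libraries each: si1 and si2, described as transient knockdown of KRT6A, and NC, the control cells. The labels spell out neither these names nor the knockdown reagents, and nothing says that 2 libraries of a group came from separate cultures, so p-values may measure technical spread only.

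Class I molecules sit on nearly all nucleated cells and show fragments of the cell's own proteins to CD8 T cells. A polymorphic heavy chain pairs with beta-2-microglobulin in the endoplasmic reticulum, where tapasin holds the empty pair next to the TAP transporter until a peptide cut by the proteasome is loaded. HLA-E and HLA-F are less polymorphic heavy chains that are also read by receptors of natural killer cells. NLRC5 acts on class I promoters through proteins bound to a conserved S, X1, X2 and Y module, and interferons and NF-kB act through neighbouring elements. Lung and other carcinomas often carry low class I, which is known as a route of escape from T cells.

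Promoter windows are shown for the 3 heavy chain genes whose levels were lower in si2 and that had a RefSeq window, and for B2M, whose level was not. Each runs from 250 bases before to 50 bases after the annotated start, on the GRCh38.p14 build, 5′ to 3′ on the gene's own strand. Capitals mark matches, on either strand, to 4 short motifs: an NF-kB-type motif (the general NF-kB consensus), an interferon-type motif (AANNGAAA), an X2-type motif (TGACG) and a Y-type motif (ATTGG).
HLA-C (chr6:31272043-31272342, minus strand): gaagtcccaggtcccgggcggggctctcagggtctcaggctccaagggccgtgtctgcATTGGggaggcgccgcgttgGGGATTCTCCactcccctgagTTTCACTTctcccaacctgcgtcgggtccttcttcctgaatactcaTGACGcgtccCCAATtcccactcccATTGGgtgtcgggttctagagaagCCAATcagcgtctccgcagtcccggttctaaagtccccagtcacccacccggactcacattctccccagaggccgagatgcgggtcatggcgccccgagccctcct
HLA-B (chr6:31357130-31357429, minus strand): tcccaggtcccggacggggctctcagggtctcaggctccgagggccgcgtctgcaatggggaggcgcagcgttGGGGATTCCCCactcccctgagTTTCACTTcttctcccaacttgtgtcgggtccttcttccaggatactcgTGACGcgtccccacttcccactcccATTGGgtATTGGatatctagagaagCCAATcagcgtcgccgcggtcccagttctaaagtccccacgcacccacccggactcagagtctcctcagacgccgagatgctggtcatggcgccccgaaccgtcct
HLA-F (chr6:29723184-29723483, plus strand): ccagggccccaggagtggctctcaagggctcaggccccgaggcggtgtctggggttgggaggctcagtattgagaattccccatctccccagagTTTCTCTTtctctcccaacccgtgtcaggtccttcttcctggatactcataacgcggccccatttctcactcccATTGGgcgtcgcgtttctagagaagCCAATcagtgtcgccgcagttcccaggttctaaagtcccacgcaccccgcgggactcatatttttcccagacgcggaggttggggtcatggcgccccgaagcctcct
B2M (chr15:44711267-44711566, plus strand): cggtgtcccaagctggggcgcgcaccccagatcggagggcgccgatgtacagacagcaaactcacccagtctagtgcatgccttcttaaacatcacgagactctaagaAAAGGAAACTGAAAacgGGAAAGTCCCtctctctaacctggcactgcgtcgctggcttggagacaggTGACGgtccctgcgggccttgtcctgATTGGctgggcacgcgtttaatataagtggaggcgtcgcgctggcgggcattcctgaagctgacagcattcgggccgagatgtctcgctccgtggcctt

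In the HLA-C and HLA-B windows the motifs stand in the same order, NF-kB-type, interferon-type, X2-type and Y-type. HLA-C had an NF-kB-type match at −172 to −163, counted from the annotated start, an interferon-type match at −151 to −144, an X2-type match at −105 to −101 and a Y-type match at −80 to −76. HLA-B had overlapping NF-kB-type matches from −177 to −167, an X2-type match at −106 to −102 and Y-type matches at −81 to −77 and −74 to −70. Y-type matches on the opposite strand lay at −56 to −52 in both. HLA-C held 2 further Y-type matches, at −192 to −188 and −95 to −91. No match overlapped one of another motif in any of the 4 windows. HLA-F held interferon-type and Y-type matches but no NF-kB-type or X2-type letters in the window. B2M carried all 4, with the interferon-type pair upstream of the NF-kB-type one, the X2-type match at −75 to −71 and the Y-type match at −49 to −45.

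Over all 35116 RefSeq windows of 300 bases, 11.3% hold the NF-kB-type motif, 22.8% the interferon-type, 24.6% the X2-type and 34.6% the Y-type motif. A match is a description of letters, not a binding site. The HLA-B window was 88.5% identical to that of HLA-C in a global alignment and 79.2% identical to that of HLA-F, against 48.0% for B2M. All pairs not made up of 2 heavy chain windows lay between 43.2% (HLA-F with TAP2) and 49.7% (B2M with TAP1). Of the 9 genes, 7 had a window in the table, with HLA-E and NLRC5 named only. The first windows of TAP1, TAP2 and TAPBP each held 2 interferon-type matches that overlap each other. TAP1 and TAPBP also held NF-kB-type matches, and TAP2 an X2-type match.

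**Figure D1:**
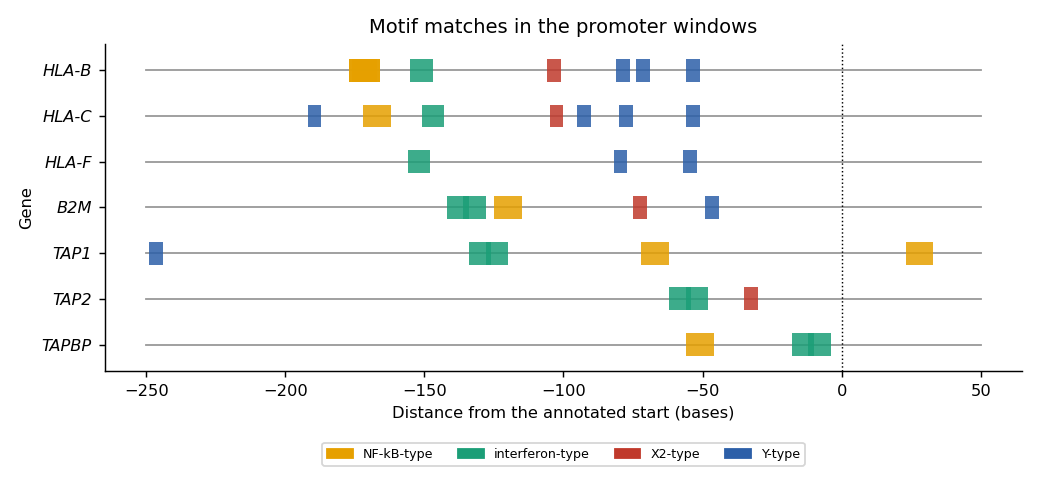
Motif matches in the first RefSeq promoter window of 7 class I genes, plotted by distance in bases from the annotated start (dotted line), with 1 row a gene and 1 colour a motif. HLA-B and HLA-C show the same order of motifs apart from an upstream Y-type match in HLA-C, and the X2-type match lies at −106 to −102 in HLA-B and −105 to −101 in HLA-C.

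The libraries held 14948607 to 17401392 reads, recovered from the deposited FPKM (fragments per kilobase of gene, scaled to the depth of the library), and 12333 to 12439 genes reached 1 FPKM in a library. KRT6A, the targeted gene, had 0 reads in all 6 libraries, which allows at most 0.0678 FPKM in any of them, so the knockdown and the group labels could not be checked on it. The epithelial identity was carried by KRT7, KRT8, KRT18 and KRT19, with KRT8 at 39.6 to 59.5 FPKM the lowest of the 4 by its range. EPCAM was lower, at 3.56 to 5.33 FPKM. Of the squamous markers, the keratin gene KRT5 stayed at or below 0.0133 FPKM and SOX2 at or below 1.03. TP63 was expressed, at 5.37 and 5.34 FPKM in si1, 12.8 and 10.9 in si2 and 5.97 and 6.25 in NC. TP63 was called higher in si2 (log2 fold change 0.85, adjusted p = 0.00119) but not called in si1 (−0.16, adjusted p = 0.254). The summed level of 8 epithelial markers ran from 376 to 382 FPKM in si1, 278 to 289 in si2 and 361 to 386 in NC, with the 4 keratins named making up most of it. Of the 8, 6 were tested, and 3 were called higher and 2 lower in si2, where 13.6% and 15.4% of all genes were. In si1, 3 were called higher and 1 lower, where 9.47% and 12.9% of all genes were. The median log2 fold change of the 6 was 0.068 in si2 and 0.20 in si1, against 0.0046 and −0.0071 over all genes. The change in the sum and the median in si2 differ in sign. The summed level of 7 fibroblast and endothelial markers ran from 20.3 to 25.2 FPKM in si1, 23.2 to 23.7 in si2 and 17.4 to 17.97 in NC. COL1A1 alone, at 15.2 to 22.5 FPKM, made up most of that sum. Of the 7, 2 were tested. COL1A1 was called higher in si1 (0.38, adjusted p = 0.0363) and in si2 (0.41, adjusted p = 0.0225). PDGFRB, at 1.197 to 1.89 FPKM, was called in neither (adjusted p = 0.424 in si1 and 0.741 in si2). LUM ran from 0.549 to 1.33 FPKM and did not pass the filter. DCN, PECAM1, VWF and CDH5 stayed at or below 0.236 FPKM in every library. The part of either sum in the class I results was not tested. Of 9 leukocyte markers, 1 reached a mean of 1 FPKM (CD14). CD3E and MS4A1 had 0 reads in all libraries, and PTPRC stayed at or below 0.122 FPKM. The summed level of the 9 ran from 1.36 to 1.97 FPKM in si1, 1.70 to 2.13 in si2 and 1.27 to 1.99 in NC.

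All 9 genes passed the filter of a mean of 1 FPKM over the 6 libraries, with HLA-F just inside it at a mean of 1.16 FPKM. Fold changes are differences of log2(FPKM + 1) from limma, and calls were made at 0.05 after Benjamini-Hochberg adjustment across the 12319 genes that passed. In si2 against NC, 0 of the 9 were called higher and 4 lower, where 13.6% of all genes were called higher and 15.4% lower. In si1 against NC, 0 were higher and 3 lower, where 9.47% and 12.9% of all genes were. In the 2 knockdown groups together against NC, 0 were higher and 4 lower, where 8.73% and 11.8% of all genes were. Between the groups, si2 against si1, 3 were higher and 4 lower, where 19.9% and 18.6% of all genes were. The median log2 fold change of the 9 was −0.19 in si2, −0.17 in si1, −0.25 in both together and −0.32 in si2 against si1, while the medians over all genes were 0.0046, −0.0071, −0.010 and 0.011. The 4 called in si2 were the heavy chains, and the 3 called in si1 were the transporter and tapasin genes. Separate calls are not a test of a difference between the groups. In si2 against si1, HLA-F (−0.50, adjusted p = 0.0554) and TAPBP (0.19, adjusted p = 0.0988) did not pass the threshold. The share of all genes called in both groups was not counted. Both comparisons share the NC libraries.

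**Figure D2:**
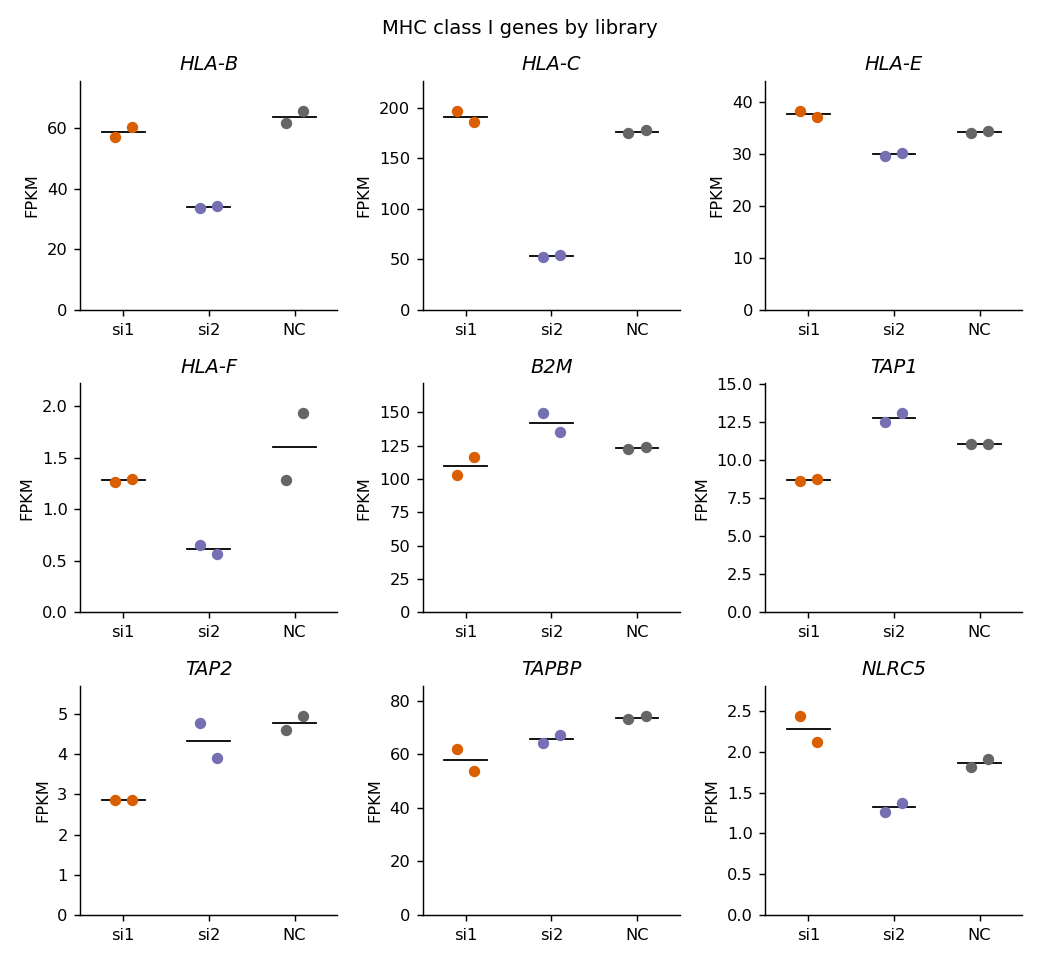
FPKM of the 9 class I genes in each library, with 1 point a library, 2 libraries in each of si1, si2 and NC, and a line at the group mean. Each panel starts at 0. HLA-C lies at 52.7 and 54.3 FPKM in si2, below every library of si1 and NC.

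HLA-C (ENSG00000204525, chr6:31268749-31272130, hg38), a classical heavy chain that is also the main ligand of inhibitory killer cell receptors, showed the largest difference of the 9. It was at 197 and 186 FPKM in the si1 libraries, 52.7 and 54.3 in si2 and 175 and 178 in NC. The si2 libraries stood far below the other 4, and the si1 libraries lay just above NC. The level in si2 was 69.7% lower than in NC (log2 fold change −1.70, SE 0.0552, adjusted p = 3.18e-05), which placed it at rank 31 from the lowest of the 12319 genes. Against si1 the log2 fold change was −1.82 (SE 0.0552, adjusted p = 1.11e-05). In si1 against NC it was 0.12 (SE 0.0552, adjusted p = 0.182), with a 95% interval of −0.015 to 0.25. The values rested on 2059 to 8072 reads a library. In bulk RNA, a lower level in every cell cannot be told apart from a loss in some cells.

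HLA-B (ENSG00000234745, chr6:31269491-31357188), the most polymorphic of the classical heavy chains, followed at a smaller size. It was at 57.2 and 60.2 FPKM in si1, 33.6 and 34.2 in si2 and 61.6 and 65.6 in NC. Both si2 libraries were below the other 4, and the si1 libraries were below NC with a gap smaller than the SD within either group. The level fell by 0.89 log2 units in si2 (SE 0.0625, adjusted p = 2.73e-04), was 46.7% lower in FPKM than in NC, and was lower than in si1 by a log2 fold change of −0.77 (adjusted p = 2.18e-04). In si1 against NC the log2 fold change was −0.11 (SE 0.0625, adjusted p = 0.237).

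The annotated span of HLA-B covers most of HLA-C on the same strand, and heavy chain genes share stretches of sequence, so reads may be split between them in a way the sources used here do not describe. With the reads of both genes summed and scaled to library depth (RPM), the libraries held 680 and 660 RPM in si1, 236 and 243 in si2 and 630 and 653 in NC. The summed feature fell by 1.41 log2 units in si2 (SE 0.051, adjusted p = 4.05e-05) and had a log2 fold change of 0.049 in si1 (adjusted p = 0.533). HLA-C took 56.3% and 56.6% of these reads in si2, against 73.9% and 71.7% in si1 and 70.0% and 69.1% in NC. The groups did not overlap in that share.

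HLA-E (ENSG00000204592, chr6:30489467-30494205), which presents leader peptides of other class I chains to CD94 and NKG2A receptors, differed little. It was at 38.3 and 37.1 FPKM in si1, 29.6 and 30.1 in si2 and 34.1 and 34.4 in NC. The 3 groups did not overlap, with si1 highest and si2 lowest. The log2 fold change was −0.19 in si2 (SE 0.0581, adjusted p = 0.0483) and 0.14 in si1 (SE 0.0581, adjusted p = 0.144), and si2 was lower than si1 by a log2 fold change of −0.32 (adjusted p = 0.00507). The call in si2 against NC was lost in each fit that left out an NC or si2 library (adjusted p 0.154 to 0.210) and without the filter, with a pseudocount of 0.1, without the variance trend and with voom on the recovered reads (adjusted p 0.0508 to 0.0967).

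HLA-F (ENSG00000204642, chr6:29722775-29738528), a heavy chain found partly as an open form without peptide, had the lowest deposited FPKM of the 9 by its mean in each group. It was at 1.27 and 1.29 FPKM in si1, 0.656 and 0.564 in si2 and 1.28 and 1.93 in NC, from 37 to 147 reads a library. Both si2 libraries were below the rest, and NC spread more widely than si1. HLA-F fell by 0.68 log2 units in si2 on the log2(FPKM + 1) scale (SE 0.172, adjusted p = 0.0251), which is 62.0% lower in FPKM. Its si2 mean of 0.610 FPKM lay under the filter, which HLA-F passed on its NC and si1 levels. With a pseudocount of 0.1 the log2 fold change was −1.24, and with voom −1.37. It did not stay past the threshold with NC replicate 2 left out (−0.50, adjusted p = 0.152), with si2 replicate 1 left out (0.0726), with si2 replicate 2 left out (0.0863) or with no filter (0.0989). Its difference between si2 and si1 missed the threshold (−0.50, adjusted p = 0.0554), and passed it with a pseudocount of 0.1 (−0.96, adjusted p = 0.0484), with no variance trend (0.0275) and with voom (0.0109). An antisense gene, HLA-F-AS1, overlaps it and held 10 to 31 reads a library, and strand was not stated.

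Summed over the 4 heavy chains, 802 and 778 RPM fell on them in si1, 328 and 336 in si2 and 737 and 765 in NC. HLA-C made up 40.5% and 40.9% of these reads in si2, against 62.7% and 60.8% in si1 and 59.8% and 59.0% in NC. In FPKM, HLA-E stood at 0.563 and 0.555 of HLA-C in si2, against 0.194 and 0.200 in si1 and 0.195 and 0.193 in NC. The balance of the heavy chain transcripts stood apart in the si2 libraries, while si1 and NC overlapped in the ratio of HLA-E to HLA-C.

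B2M (ENSG00000166710, chr15:44711487-44718877), the light chain that pairs with class I heavy chains, was not called lower in either group. It was at 103 and 117 FPKM in si1, 149 and 135 in si2 and 123 and 124 in NC. Here si2 was highest and si1 lowest, with no overlap between the 3 groups. The log2 fold change was 0.20 in si2 against NC (SE 0.0773, adjusted p = 0.0929) and −0.17 in si1 (SE 0.0773, adjusted p = 0.165), neither past the threshold. The 95% interval in si2 ran from 0.020 to 0.39. With si1 replicate 1 or 2 left out, or with voom, the same difference passed it (adjusted p = 0.0400, 0.0400 and 0.0204). In si2 against si1 B2M was higher by 0.37 (adjusted p = 0.00926), a call that ended with si2 replicate 1 left out (adjusted p = 0.0667) or with no filter (0.0552). The ratio of HLA-C to B2M in FPKM was 1.91 and 1.59 in si1, 0.353 and 0.401 in si2 and 1.43 in both NC libraries.

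The order of the levels depends on the gene length behind FPKM. In NC the deposited values ran HLA-C 176, B2M 123, TAPBP 73.8, HLA-B 63.6, HLA-E 34.2, TAP1 11.1, TAP2 4.78, NLRC5 1.86 and HLA-F 1.605 FPKM (means of 2 libraries). NLRC5 and HLA-F did not differ beyond their spread there, with SDs of 0.0712 and 0.457. The deposited length of B2M is 6079 bases, whereas its 3 principal transcripts in GENCODE 29 are 943 to 1705 bases long. Scaled to those, B2M would lie at 440 to 796 FPKM in NC, above HLA-C at 288 FPKM by its own principal transcript of 1536 bases. Rescaled in the same way, TAPBP would be at 198 FPKM and HLA-B at 125, and HLA-F at 4.26 would lie above NLRC5 at 3.38 to 3.43. Fold changes between groups do not depend on the length except through the added pseudocount.

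**Figure D3:**
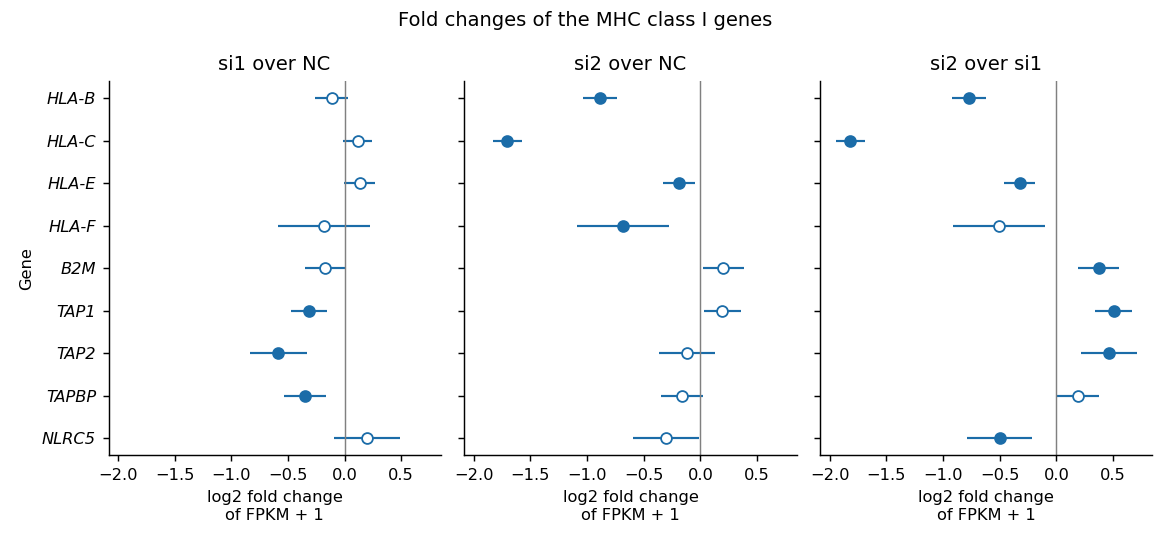
Log2 fold changes of FPKM + 1 for the 9 class I genes, with limma's 95% interval, in si1 over NC, si2 over NC and si2 over si1. Filled points have an adjusted p under 0.05. The heavy chains carry the filled points in si2 over NC, from −1.70 for HLA-C to −0.19 for HLA-E, and TAP1, TAP2 and TAPBP carry those in si1 over NC.

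TAP1 (ENSG00000168394, chr6:32845209-32853978) and TAP2 (ENSG00000204267, chr6:32821833-32838780) encode the paired subunits of the transporter that moves peptides into the endoplasmic reticulum. TAP1 was at 8.66 and 8.79 FPKM in si1, 12.5 and 13.1 in si2 and 11.1 in both NC libraries. The groups did not overlap, with si1 lowest and si2 highest. TAP1 fell by 0.31 log2 units in si1 (SE 0.0679, adjusted p = 0.0186), was at 0.19 in si2 against NC (SE 0.0679, adjusted p = 0.0727) and stood 0.50 above si1 in si2 (adjusted p = 0.00161). The si1 call needed both NC libraries, with an adjusted p of 0.110 when replicate 1 was left out and 0.099998 when replicate 2 was.

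TAP2 was at 2.86 and 2.85 FPKM in si1, 4.78 and 3.90 in si2 and 4.61 and 4.95 in NC. The si1 libraries lay below the other 4, and si2 overlapped NC. TAP2 fell by 0.58 log2 units in si1 (SE 0.106, adjusted p = 0.00929), which is 40.3% lower in FPKM, and in si2 its log2 fold change was −0.12 (SE 0.106, adjusted p = 0.437). The si2 libraries stood above si1 by 0.465 log2 units (adjusted p = 0.0129). Leaving out NC replicate 2 ended the si1 call (0.0668), as did having no filter (0.0538). Leaving out si2 replicate 1 ended the call between si2 and si1 (0.0784), as did having no filter (0.0606), all as adjusted p. TAP1 overlaps PSMB9 on the other strand, whose level is given with the immunoproteasome, and PSMB8-AS1, which held 18 to 30 reads a library.

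TAPBP (ENSG00000231925, chr6:33299694-33314387), which encodes tapasin, was at 62.0 and 53.7 FPKM in si1, 64.4 and 67.4 in si2 and 73.1 and 74.4 in NC. All 4 knockdown libraries were below both NC libraries. TAPBP fell by 0.35 log2 units in si1 (SE 0.0779, adjusted p = 0.0200) and by 0.25 in the 2 groups together (SE 0.0675, adjusted p = 0.0386). In si2 alone the log2 fold change was −0.16 (SE 0.0779, adjusted p = 0.166), and si2 and si1 did not differ past the threshold (0.19, adjusted p = 0.0988). Leaving out si1 replicate 1 or 2 brought si2 against NC past it (adjusted p = 0.0413 and 0.0404), and leaving out si1 replicate 1 brought si2 against si1 past it (0.29, adjusted p = 0.0135). The si1 call ended with NC replicate 1 left out (adjusted p = 0.0991), with NC replicate 2 left out (0.109) and with no filter (0.0869). For the 2 groups together, TAPBP and TAP2 each dropped below the threshold in 8 of 14 alternatives: with either NC library or si2 replicate 2 left out for both genes (adjusted p 0.0756 to 0.221), with si2 replicate 1 left out for TAPBP (0.104) and with si1 replicate 1 or 2 left out for TAP2 (0.0593 and 0.0669), beside changes of the fit.

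NLRC5 (ENSG00000140853, chr16:56989485-57083531), the transactivator of class I promoters, was at 2.44 and 2.12 FPKM in si1, 1.26 and 1.38 in si2 and 1.81 and 1.91 in NC. The 3 groups did not overlap, with si1 highest and si2 lowest. HLA-C and HLA-E had the same order, B2M and TAP1 the reverse one, and HLA-B, HLA-F, TAP2 and TAPBP had their highest mean in NC. The share of all genes in which the 3 groups do not overlap was not counted. For NLRC5, neither group differed from NC past the threshold, at 0.20 in si1 (SE 0.122, adjusted p = 0.295) and −0.30 in si2 (SE 0.122, adjusted p = 0.107). In FPKM the si2 mean was 29.1% lower than that of NC. With voom the log2 fold change in si2 was −0.50 (adjusted p = 0.00811), and without the variance trend the adjusted p was 0.0452. NLRC5 was lower in si2 than in si1 by a log2 fold change of −0.50 (SE 0.122, adjusted p = 0.0172), a call that ended with si1 replicate 1 left out (adjusted p = 0.0822), with si2 replicate 1 left out (0.0750) or with no filter (0.0680).

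**Figure D4:**
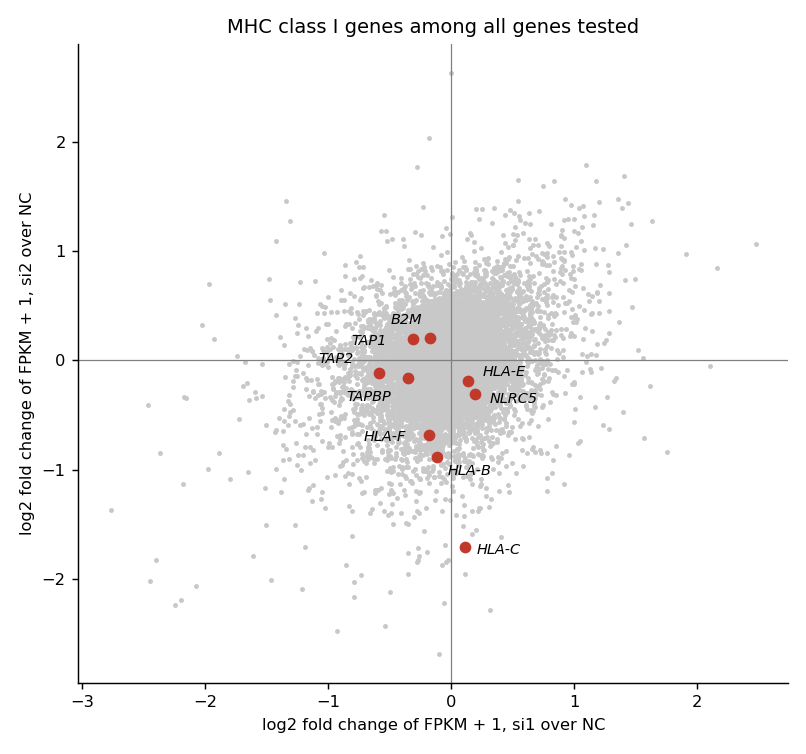
Log2 fold change of FPKM + 1 in si1 over NC (x axis) and in si2 over NC (y axis) for all 12319 genes tested (grey) and the 9 class I genes (red, named). Both axes share the NC libraries. HLA-C lies at 0.12 on the x axis and −1.70 on the y axis, towards the lower edge of the cloud.

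In the 2 knockdown groups together, HLA-C (−0.79, SE 0.0478, adjusted p = 2.43e-04) and HLA-B (−0.50, SE 0.0541, adjusted p = 0.0016) were called lower, with the si1 values near NC as given above. When the 4 knockdown libraries were fitted as 1 group, so that the spread between si1 and si2 counted as error, neither was past the threshold (adjusted p = 0.623 for HLA-C and 0.467 for HLA-B), nor was TAP2 or TAPBP.

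Of the other 8 genes of peptide loading, all were tested, and 3 were called higher and 2 lower in si2, against 0 higher and 2 lower in si1. As shares of all genes, 13.6% were called higher and 15.4% lower in si2, and 9.47% and 12.9% in si1, and the counts of the lists that follow stand beside the same shares. Calreticulin, a chaperone that holds new heavy chains, fell in both: CALR was at 179.6 and 177 FPKM in si1, 188 and 188 in si2 and 245 and 250.1 in NC (−0.47 in si1, adjusted p = 9.45e-04, and −0.40 in si2, adjusted p = 0.00154). TAPBPL, a tapasin relative that edits peptides, rose by 0.54 in si2 (11.2 and 12.3 FPKM in si2 against 7.28 and 8.29 in NC, adjusted p = 0.00659). The aminopeptidase gene ERAP1, whose product trims peptides to fit the groove, rose by 0.50 in si2 (17.7 and 19.0 FPKM in si2 against 12.6 and 12.7 in NC, adjusted p = 0.00296). UGGT1, a folding sensor that returns class I molecules for another round of loading, fell by 0.82 in si2 (8.99 and 9.70 FPKM in si2 against 18.2 and 16.3 in NC, adjusted p = 0.00212). The median of the 8 was 0.0030 in si2 and −0.21 in si1, where the medians over all genes, also for the lists that follow, were 0.0046 and −0.0071.

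The immunoproteasome, whose interferon-induced subunits favour peptides that class I can bind, showed 1 call among 5 genes. PSMB9 was at 3.94 and 3.42 FPKM in si1, 3.79 and 5.86 in si2 and 6.68 and 6.84 in NC, and fell in si1 by 0.73 log2 units (SE 0.163, adjusted p = 0.0200). The si2 libraries lay apart from each other, and the log2 fold change there was −0.44 (adjusted p = 0.0874). The other 4 were not called in either group. PSMB8 had a log2 fold change of 0.23 in each of si1 (adjusted p = 0.102) and si2 (adjusted p = 0.0857), and PSMB10 −0.19 in si1 and −0.0060 in si2. The activator genes PSME1 and PSME2 were at 0.13 and −0.046 in si1, and 0.17 and −0.14 in si2. The 5 had a median of −0.046 in si1 and −0.0060 in si2. Of the 3 constitutive catalytic subunits, PSMB6 fell in si2 (−0.51, adjusted p = 0.00165). PSMB7 fell in si1 (−0.39, adjusted p = 0.00647) and si2 (−0.24, adjusted p = 0.0309). PSMB5 was called in neither (−0.047 in si1, adjusted p = 0.811, and −0.32 in si2, adjusted p = 0.0819). The median of the 3 was −0.047 in si1 and −0.32 in si2.

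Among 8 genes for the factors that bind the X and Y boxes, 1 was called higher and 1 lower in si2, and 2 higher and 1 lower in si1. RFX5, a subunit of the RFX complex that NLRC5 needs, fell by 0.36 in si2 (10.1 and 10.5 FPKM in si2 against 13.3 and 13.6 in NC, adjusted p = 0.0107) and by 0.28 in si1 (adjusted p = 0.0305). ATF1, of the family that binds the X2 box, rose by 0.81 in si2 (13.7 and 13.2 FPKM in si2 against 7.27 and 7.16 in NC, adjusted p = 0.00213) and by 0.47 in si1 (adjusted p = 0.0199). The Y-box subunit gene NFYA rose by 0.29 in si1 (adjusted p = 0.0455). RFXANK, RFXAP, NFYB, NFYC and CREB1 were called in neither. The 8 had a median of −0.0041 in si1 and −0.059 in si2.

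Of 15 genes of interferon and NF-kB signalling to class I promoters, 12 were tested, and 3 were called higher and 2 lower in si2, against 1 higher and 1 lower in si1. The interferon-gamma receptor gene IFNGR1 was at 41.1 and 48.6 FPKM in si1, 36.3 and 35.6 in si2 and 29.1 and 27.1 in NC, and rose by 0.65 in si1 (adjusted p = 0.00291) and by 0.34 in si2 (adjusted p = 0.0265). JAK2, a kinase bound to the other chain of that receptor, rose by 0.35 in si2 (9.56 and 9.99 FPKM in si2 against 7.81 and 7.15 in NC, adjusted p = 0.0368). STAT2, which carries type I interferon signals, fell by 0.35 in si2 (10.2 and 9.36 FPKM in si2 against 13.5 and 12.03 in NC, adjusted p = 0.0325). RELA, an NF-kB subunit, was called lower in the 2 groups together (−0.25, adjusted p = 0.0383) but in neither alone (−0.26 in si1, adjusted p = 0.0517, and −0.25 in si2, adjusted p = 0.0520). NFKB1, another NF-kB subunit gene, was the 1 called lower in si1 (−0.27, adjusted p = 0.0328). It was not called in si2 (−0.064, adjusted p = 0.537). Picked after their values were seen, IFNGR2 and TYK2 had larger differences in si2. IFNGR2, which encodes the other chain of the interferon-gamma receptor, rose by 0.68 in si2 (adjusted p = 0.00224) and was at −0.30 in si1 (adjusted p = 0.0528), with 18.1 and 21.4 FPKM in si1, 39.8 and 39.5 in si2 and 25.3 and 23.5 in NC. It stood 0.97 above si1 in si2 (adjusted p = 3.38e-04). The kinase gene TYK2 fell by 0.41 in si2 (adjusted p = 0.0130) and was at 0.030 in si1 (adjusted p = 0.833). The 12 had a median of −0.074 in si1 and −0.0058 in si2. IRF1, picked after its values were seen, binds interferon-type promoter elements and was called in neither group against NC. It was at 7.93 and 7.86 FPKM in si1, 10.6 and 11.8 in si2 and 9.13 and 9.53 in NC, and differed between si2 and si1 (0.45, adjusted p = 0.00449).

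**Figure D5:**
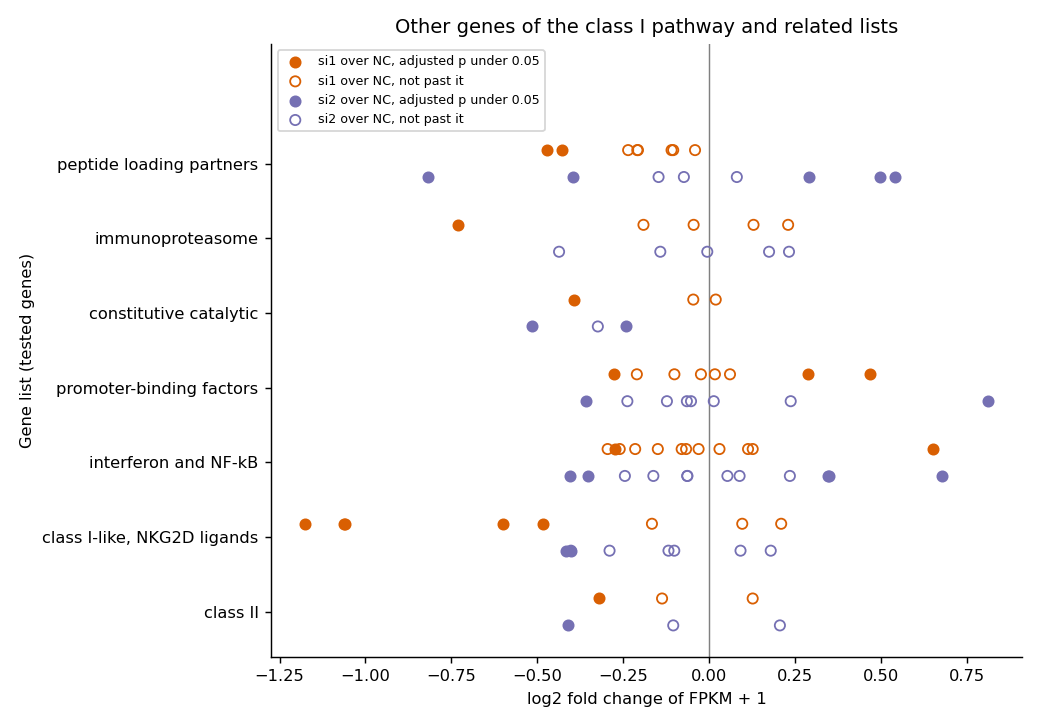
Log2 fold change of FPKM + 1 against NC for each tested gene of 7 lists related to class I, with si1 above si2 in each row. Filled points have an adjusted p under 0.05. The class I-like row has 5 filled points in si1, all below 0, and the promoter-binding row has ATF1 at 0.81 in si2.

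Of 10 other class I-like genes and ligands of NKG2D, an activating receptor of natural killer and T cells, 8 were tested, and 0 were called higher and 5 lower in si1, against 0 higher and 2 lower in si2. ULBP3 was at 3.53 and 2.81 FPKM in si1, 6.22 and 4.95 in si2 and 6.78 and 8.64 in NC, with a log2 fold change of −1.06 in si1 (adjusted p = 0.00341) and −0.40 in si2 (adjusted p = 0.0856). MICB was at 11.9 and 12.2 FPKM in si1, 19.8 and 19.4 in si2 and 27.5 and 25.1 in NC, with a log2 fold change of −1.06 in si1 (adjusted p = 2.23e-04) and −0.40 in si2 (adjusted p = 0.00712). ULBP1 fell by 0.60 in si1 (3.39 and 3.33 FPKM in si1 against 5.94 and 5.27 in NC, adjusted p = 0.00398). MICA and ULBP2 (−1.17, adjusted p = 0.00259) were also called lower in si1, and MICA in si2. In si2 against si1, 4 of the 8 were called higher and 1 lower, where 19.9% and 18.6% of all genes were. The 4 higher were ULBP2 (1.27, adjusted p = 0.0011), MICB (0.66), ULBP3 (0.66) and ULBP1 (0.50). The 1 lower was FCGRT, the neonatal Fc receptor chain that also pairs with B2M (−0.50, adjusted p = 0.0412). FCGRT was at 2.51 and 2.48 FPKM in si1, 1.53 and 1.41 in si2 and 1.62 and 2.48 in NC. The 8 had a median of −0.54 in si1 and −0.20 in si2. HLA-G and CD1D had 0 reads in every library.

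Of 10 MHC class II genes, 3 were tested. The invariant chain gene CD74 was at 6.67 and 6.198 FPKM in si1, 6.30 and 5.67 in si2 and 8.42 and 8.15 in NC, and fell in both (−0.32 in si1, adjusted p = 0.0326, and −0.41 in si2, adjusted p = 0.0119). HLA-DRA and HLA-DRB1 were called in neither, and the class II transactivator gene CIITA stayed at or below 0.544 FPKM in each library.

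For each of the 9, the gene whose log2(FPKM + 1) profile over the 6 libraries had the highest Pearson correlation was found, as a description without a test, since the libraries form 3 groups. These were CCND3 for HLA-C, RNF5 for HLA-B, CTBP1 for HLA-E, MRPS12 for HLA-F, ALKBH3 for B2M, OTUB2 for TAP1, SP2 for TAP2, MT-ATP8 for TAPBP and CYB5R3 for NLRC5, at r of 0.996 for ALKBH3 and above that for the other 8. CCND3 was at 9.64 and 9.34 FPKM in si1, 4.41 and 4.49 in si2 and 9.07 and 9.41 in NC. RNF5 was at 27.1 and 29.8 FPKM in si1, 12.7 and 13.4 in si2 and 29.8 and 32.4 in NC. These genes were picked out of 12319 for their likeness.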

How the data were processed

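The authors deposited 1 table of FPKM values and lengths for 58735 genes, on genome build hg38 per the submitters' processing notes. Which aligner, counting program, strand setting and gene models were used is not given in the sources used here. Products of deposited FPKM and length came in even steps within a library (100% of values within 0.001 reads), and dividing by the step gave the reads. Limits from 0 reads (3 reads) cover counting error only.

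The 12319 genes averaging 1 FPKM or more were fitted as log2(FPKM + 1) with limma 3.58.1 in R 4.3.3, with 1 coefficient a group over all 6 libraries (3 residual and 4.03 prior degrees of freedom, variance trend, two-sided). The 4 contrasts were si1 and si2 together, si1 alone and si2 alone against NC, and si2 against si1. Calls were made at 0.05 after Benjamini-Hochberg adjustment across these genes. The fit was tested on simulated data, and the motif search on short sequences with known answers.

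The 9 genes were fixed by name, and they and the related lists were chosen with earlier results of these data known. Values were given for the 9, for up to 2 members of each list with the highest and 2 with the lowest fold change (both groups together) among those called, for all members of lists of 5 or fewer, and for genes that overlap the 9 and hold more than 3 reads. The gene most like each of the 9 was named. Other genes named beside a value were chosen after their values were seen. Alternatives were another pseudocount, no filter, 2 other scalings, a replicate block, the knockdown libraries as 1 group, no variance trend, each library left out, and, chosen after seeing the data, voom on the recovered reads, principal transcript lengths and HLA-B and HLA-C summed. Promoter sequences came from RefSeq (GRCh38.p14), and transcript lengths from GENCODE 29.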

Additional observations from a re-analysis of the deposited data

Results flagged for a closer look

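The effects against NC differed between si2 and si1 for 7 of the 9 genes by the test of the difference itself, where 19.9% of all genes were higher and 18.6% lower. HLA-C (−1.82 log2 units, si2 against si1), HLA-B (−0.77), NLRC5 (−0.50) and HLA-E (−0.32) were lower in si2. TAP1 (0.50), TAP2 (0.465) and B2M (0.37) were higher in si2. Both groups are described as knockdown of the same gene, which had 0 reads in every library.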

How the results depend on the processing

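Of 477 alternative values for the 9 genes over the 4 contrasts, 417 kept direction and side of the threshold, 45 lost the call, 13 gained it and 2 changed sign. HLA-C and HLA-B kept their calls in si2 against NC and in si2 against si1 in all 13 alternatives each, from −1.73 to −1.68 and −0.93 to −0.84 against NC. B2M in both groups together changed sign without si1 replicate 2 (−0.028) and without si2 replicate 1 (−0.018), where leaving out other libraries gave up to 0.061. Without the filter the calls over all genes numbered 1127 for both groups together, 1414 for si1, 1785 for si2 and 3130 for si2 against si1, against 2529, 2758, 3578 and 4743 with it. With the knockdown libraries as 1 group 84 genes were called. Leaving out 1 library gave 701 to 2844 calls for both together, 1114 to 2443 for si1, 1490 to 4047 for si2 and 2973 to 4367 for si2 against si1. The lowest counts came without an NC library against NC (701 for both together and 1490 for si2 without NC replicate 2, 1114 for si1 without NC replicate 1) and without si2 replicate 1 between si2 and si1. The cause was not tested. Same-numbered libraries did not deviate together (correlations −0.058 to 0.050). With a replicate block 2058, 2335, 3121 and 4314 genes were called, and the calls of HLA-E in si2 (adjusted p = 0.0944) and of TAP2 (0.0573) and TAPBP (0.0648) in both together were lost. The 3 count-based fits with edgeR and the 1 with DESeq2 were set aside because the deposited unit is FPKM. They were not run on the recovered reads either, where voom was used.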
